A study of Mus musculus with 8 samples.

Results

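The 8 genes described here encode ATP-driven calcium pumps of the cell, a set that leaves out the second Golgi pump gene, Atp2c2. They are the plasma membrane pumps Atp2b1, Atp2b2, Atp2b3 and Atp2b4, the endoplasmic reticulum pumps Atp2a1, Atp2a2 and Atp2a3, and the Golgi pump Atp2c1. They were taken by symbol from a count table of 24060 rows, where all 8 were found, and all 8 were among the 15186 genes that passed the filter on low counts. RNA was measured in bulk, in whole cerebellum of 4 bigenic mice (CalExflox; Aldh1l1-Cre/ERT2) and 4 control mice (CalExflox alone). CalExflox carries a human plasma membrane calcium pump that is expressed after Cre recombination, and Aldh1l1-Cre/ERT2 supplies a Cre driven by the regulatory sequence of an astrocyte gene and activated by tamoxifen. Tamoxifen was given once to both groups, at 75 mg/kg, 5 days before collection of the tissue. The comparison asks how the cerebellar transcriptome differs once the pump has been switched on in astrocytes, and here what the mouse's own pump genes did. Because the bigenic mice alone carry Cre, effects of Cre and of the pump cannot be told apart. Age and sex are not given in the labels.

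Calcium pumps move calcium out of the cytosol against its gradient. The plasma membrane pumps export it from the cell and are activated by calmodulin, the reticulum pumps refill the store from which calcium is released, and the Golgi pump loads both calcium and manganese into the secretory pathway. In cerebellum these pumps are best known from Purkinje cells, where Atp2b2 and Atp2a2 are abundant, and mice that lack working Atp2b2 are deaf and ataxic.

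All 8 belong to the P-type ATPases, which pass a phosphate from ATP to an aspartate of their own during each transport cycle. The coding sequence at that aspartate is shown for 6 of the genes, because it is what the members share and because it shows how far their reads can be told apart. Capitals mark the 15 bases that begin with the codon of the phosphorylated aspartate, with 12 bases before and 18 after. The sequences are from GENCODE M21 transcripts (assembly GRCm38), 5′ to 3′ on the coding strand.
Atp2b1: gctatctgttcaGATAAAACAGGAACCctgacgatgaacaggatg
Atp2b2: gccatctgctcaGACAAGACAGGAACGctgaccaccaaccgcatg
Atp2b4: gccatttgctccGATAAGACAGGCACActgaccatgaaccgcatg
Atp2a1: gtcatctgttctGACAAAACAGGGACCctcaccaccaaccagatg
Atp2a3: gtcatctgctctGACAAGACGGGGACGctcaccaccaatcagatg
Atp2c1: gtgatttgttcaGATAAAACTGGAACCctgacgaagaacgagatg
Of the 45 bases shown, 27 were the same in these 6 genes, 10 of them among the 15 capitals. Pairs of the plasma membrane genes shown were identical at 35 to 38 bases and the reticulum genes Atp2a1 and Atp2a3 at 40, while Atp2c1 was identical to the others at 30 to 38. The site lies in exon 13 of 27 in Atp2c1 (chr9:105445260-105445304, minus strand) and in exon 13 of 24 in Atp2b2 (chr6:113789885-113789929, minus strand). In the others shown it lies at chr10:98999805-98999849 (Atp2b1, plus strand), chr1:133731795-133731839 (Atp2b4, minus), chr7:126456389-126456433 (Atp2a1, minus) and chr11:72975594-72975638 (Atp2a3, plus), in each case within 1 exon. Over whole transcripts, no stretch of 75 bases, the stated read length, was shared between any of the 8, so no read of that length without mismatches can match 2 of them. Atp2c1 shares 17.0% of its 75-base stretches with the opposite strand of Aste1 and Atp2a1 shares 15.8% with that of Rabep2, whereas Atp2b2, Atp2b3 and Atp2a3 share none with any annotated transcript.

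The libraries held between 35208460 and 38293012 counted reads. The granule cell marker Gabra6 was at 676 to 1076 CPM (reads of a gene scaled to the same library size in every library) in bigenic and 1224 to 1522 CPM in control libraries, and the Purkinje cell marker Pcp2 at 631 to 676 CPM in bigenic mice, against 541 to 644 CPM in controls, so markers of both cell types of the labelled tissue were abundant. Pcp2 shares exonic bases with Pet100 on the opposite strand. Control libraries 1, 2 and 3 also held choroid plexus transcripts, with Ttr at 300.2, 2360 and 2961 CPM, against 2.76 CPM in control library 4 and 2.25 to 4.62 CPM in the bigenic libraries. Control library 4 stood apart in Slc17a6, a marker of brainstem and neighbouring neurons, at 110 CPM against 10.2 to 21.8 CPM in the other 7 libraries. In bigenic library 2 genes of 5000 bases or more lay 0.19 (median, log2 scale) above the other 3 bigenic libraries, against 0.02 for all genes tested.

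Per length, the reticulum pump Atp2a2 had the highest level of the 8 genes in both groups and the muscle pump Atp2a1 the lowest. On the FPKM scale, which the authors deposited and which divides by gene length and sequencing depth, Atp2a2 averaged 197 ± 16.6 in bigenic and 214 ± 11.9 in control libraries (SD, n = 4 each). Atp2b2 followed at 81.2 ± 26.3 FPKM in bigenic and 72.1 ± 12.7 FPKM in control libraries, with a range that overlapped that of Atp2a3 in both groups. In bigenic libraries the next in order, Atp2a3 at 62.8 ± 8.22, Atp2b3 at 61.8 ± 11.9 and Atp2b1 at 57.8 ± 1.71 FPKM, lay within one another's spread. Below them came Atp2c1 at 32.1 ± 3.07 FPKM, with every bigenic library below the range of those 3 genes. In control libraries Atp2a3, Atp2b1 and Atp2c1 lay together at 57.8 ± 10.1, 57.2 ± 2.17 and 56.6 ± 2.21 FPKM, above Atp2b3 at 46.4 ± 4.42 FPKM, whose range overlapped that of Atp2a3. Atp2c1 was thus below Atp2b3 in every bigenic library and above it in every control library. Atp2b4 averaged 5.29 ± 1.30 FPKM in bigenic and 5.05 ± 0.177 FPKM in control libraries, and Atp2a1 0.158 ± 0.0359 FPKM in bigenic and 0.161 ± 0.0814 FPKM in control libraries.

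**Figure D1:**
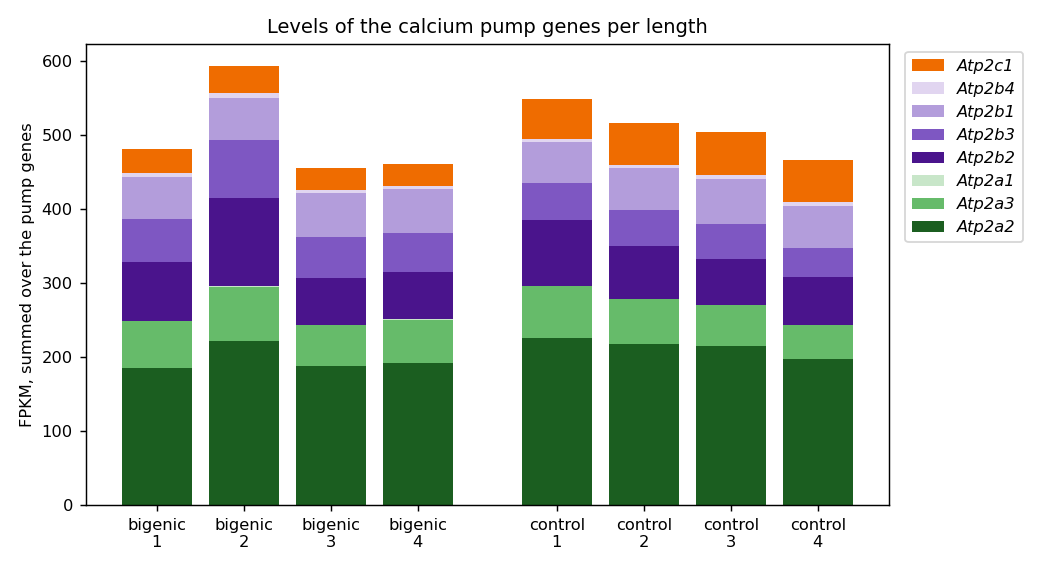
Deposited FPKM of the 8 pump genes, stacked in each library (left 4 bars bigenic, right 4 control; green reticulum, purple plasma membrane, orange Golgi). The orange Atp2c1 segment runs from 29.5 to 36.4 FPKM in bigenic and from 53.7 to 59.0 FPKM in control libraries, while the Atp2a2 segment overlaps between groups.

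Of the 8 pump genes, 1 was higher and 1 lower in bigenic cerebellum at an adjusted p under 0.05 (edgeR's quasi-likelihood test, Benjamini-Hochberg over all genes tested), and the other 6 did not pass. Over all 15186 genes tested 44.3% passed, 21.4% higher and 22.9% lower, so the share among the pump genes was below that background. The median log2 fold change of the 8 was 0.13, against -0.00 over all genes. When libraries were scaled by their size only, 2423 genes passed as higher and 4373 as lower, in place of 3249 and 3485, and the pump calls were again 1 and 1. In bulk tissue fewer cells of a type and less RNA per cell cannot be told apart, which holds for every difference given here.

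**Figure D2:**
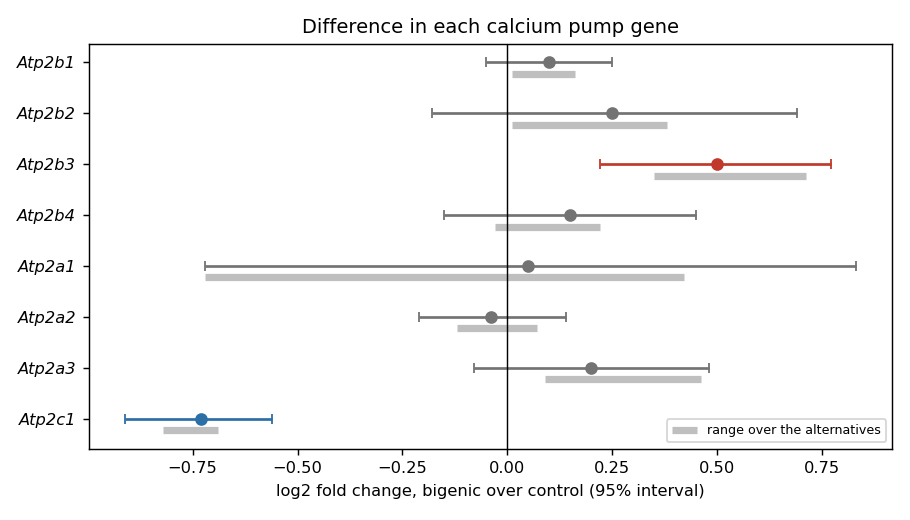
Log2 fold change of each pump gene, bigenic over control, with its 95% interval (point and bar; red higher, blue lower, grey not past the threshold). The grey bands below give the range over the 17 alternative settings: Atp2c1 stays between -0.82 and -0.69 and Atp2b3 between 0.35 and 0.71, while the bands of Atp2b4, Atp2a1 and Atp2a2 cross 0.

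Atp2b3 was the plasma membrane pump that rose. This X-linked gene (chromosome X, 73503086 to 73571005, plus strand) encodes a fast pump found mainly in neurons, and variants of its human counterpart are known from congenital ataxia. It was at 405, 552, 393 and 369 CPM over bigenic libraries 1 to 4, against 322, 322, 317 and 257 CPM over controls 1 to 4. The lowest bigenic library lay above the highest control, a pattern seen in that direction for 19.4% of the genes tested. The rise was 1.41-fold, 0.50 ± 0.13 on the log2 scale (SE; 95% interval 0.22 to 0.77; edgeR, adjusted p = 0.0079). A called rise of at least this size was seen in 10.8% of the genes tested. Bigenic library 2 was the highest of its group and control library 4, the library with the high Slc17a6, the lowest of its own. Without bigenic library 2 the log2 fold change was 0.35 (edgeR's quasi-likelihood test, adjusted p = 0.0070), and without control library 4 it was 0.42 (adjusted p = 0.023). Over the 17 alternatives adjusted p ranged from 0.0007 to 0.041 and the gene passed in each.

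Atp2b2, the mouse counterpart of the human pump in the construct, varied most between libraries of a group among the 3 abundant plasma membrane pumps. It lies on chromosome 6 (113743831 to 114042613, minus strand) and ranged over 469 to 888 CPM in bigenic mice, against 443 to 632 CPM in controls. Its coefficient of variation was 32.4% in bigenic and 17.6% in control libraries. The high bigenic value was library 2 and the high control value was library 1, and the groups overlapped. The log2 fold change of 0.25 had a 95% interval of -0.18 to 0.69 (adjusted p = 0.31), and without bigenic library 2 it was 0.01. No row names the human construct, and whether any of its reads were counted on Atp2b2 was not tested.

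Atp2b1, the housekeeping pump of most cell types (chromosome 10, 98914406 to 99026143, plus strand), was the steadiest of the 8 over the bigenic libraries. It was at 411, 412, 448 and 427 CPM over bigenic libraries 1 to 4, against 384, 393, 425 and 383 CPM over controls 1 to 4, a coefficient of variation of 4.04% in bigenic and 4.96% in control libraries. The groups overlapped through control library 3, and the interval of the log2 fold change ran from -0.05 to 0.25 (adjusted p = 0.25). Atp2b4, a pump also found in red blood cells and muscle (chromosome 1, 133699457 to 133801041, minus strand), had 42.1, 61.6, 38.1 and 39 CPM over bigenic libraries 1 to 4, against 40.3, 39.2, 41.4 and 41.8 CPM over controls 1 to 4. Its control libraries were close together and bigenic library 2 alone lay well above them. The log2 fold change was 0.15 (95% interval -0.15 to 0.45; adjusted p = 0.38), and without that library it was -0.03. The red cell markers Hba-a1 and Hbb-bs were at 0 in all 8 libraries. Of their list of 10, which includes platelet genes, 4 had no reads in any library. Why was not tested, so these zeros do not show that red cell RNA was absent. The summed level of the list was 2.03 to 6.48 CPM in bigenic mice, against 9.94 to 12.1 CPM in controls. Of its 5 tested members 3 were lower and 0 higher, where 22.9% of all genes tested were lower.

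**Figure D3:**
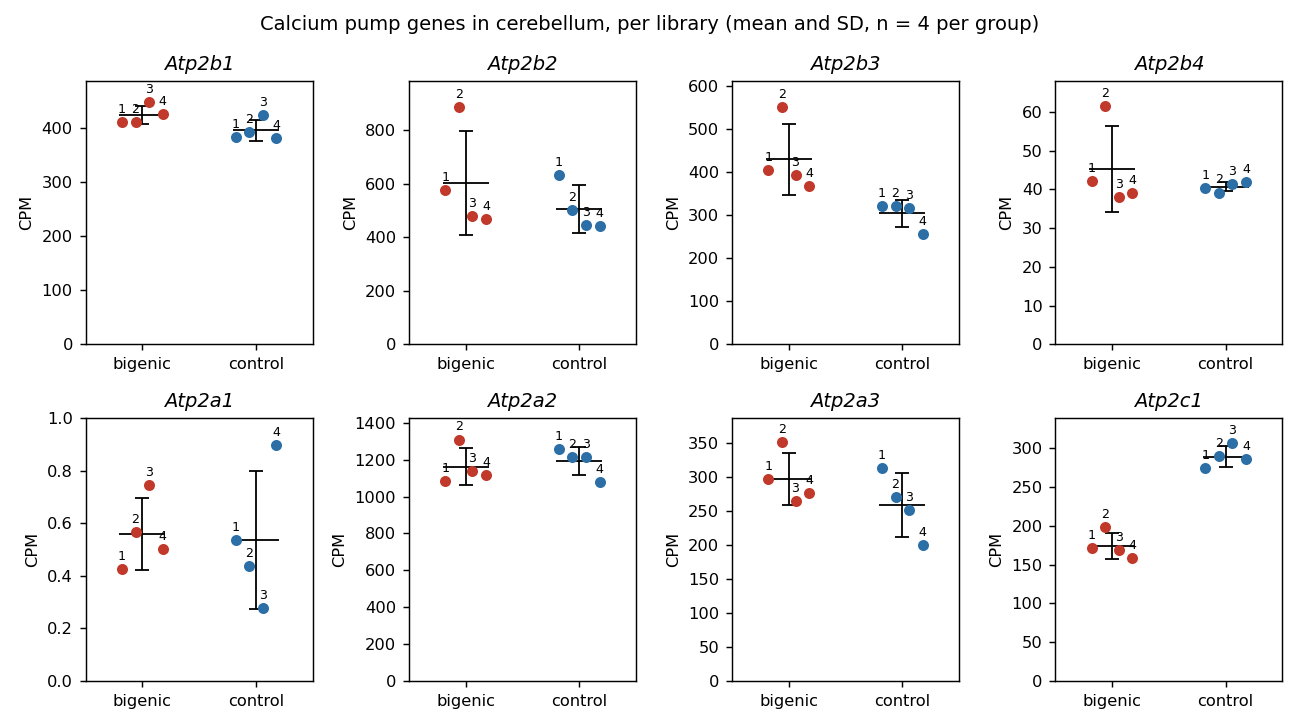
CPM of each pump gene in each library (numbered points; bigenic left in red, control right in blue), with the mean and SD of each group as black bars, n = 4. The groups are apart for Atp2b3 and Atp2c1 and overlap for the other 6 genes; bigenic library 2 is the highest bigenic point for Atp2b2, Atp2b3, Atp2b4, Atp2a2, Atp2a3 and Atp2c1.

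Within the plasma membrane class Atp2b3 made up a larger part in every bigenic library than in any control. Its share of the summed FPKM of the class was 29.6% to 30.3% in bigenic and 24.1% to 27.1% in control libraries, with means of 30.0 ± 0.390% in bigenic and 25.7 ± 1.57% in control libraries (SD, n = 4 each). Bigenic library 2, which was high in absolute level, had a share of 30.3%, like bigenic library 3. Set against Atp2b2 alone, the groups overlapped. The ratio of Atp2b3 to Atp2b2 FPKM was 0.666 to 0.876 in bigenic and 0.545 to 0.762 in control libraries. Atp2b2 made up 38.7 ± 5.04% of the class in bigenic and 39.7 ± 3.98% in control libraries, Atp2b1 28.8 ± 5.29% in bigenic and 31.8 ± 3.08% in control libraries, and Atp2b4 2.55 ± 0.150% in bigenic and 2.81 ± 0.295% in control libraries, each with overlapping groups. The shares are descriptions with no test, since the pumps were chosen with results of these data known.

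The reticulum pumps did not pass the test in either direction. Atp2a2, the main pump of the reticulum in brain and heart (chromosome 5, 122453513 to 122502225, minus strand), had 1083, 1310, 1141 and 1117 CPM over bigenic libraries 1 to 4, against 1257, 1217, 1216 and 1080 CPM over controls 1 to 4. Its groups overlapped. In the main fit the 95% interval of the log2 fold change ran from -0.21 to 0.14 (edgeR, adjusted p = 0.74). At that confidence and in that fit, larger changes lay outside it. Atp2a3, a pump of blood cells that Purkinje cells also make (chromosome 11, 72961169 to 72993044, plus strand), was at 297, 351, 265 and 277 CPM over bigenic libraries 1 to 4, against 313, 270, 252 and 200.4 CPM over controls 1 to 4. The lowest of the 8 values was control library 4 and the groups overlapped (log2 fold change 0.20, 95% interval -0.08 to 0.48; adjusted p = 0.22). Atp2a3 made up 24.1 ± 1.38% of the FPKM of its class in bigenic and 21.1 ± 2.05% in control libraries (SD, n = 4 each), with overlapping groups.

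Atp2a1, the pump of fast skeletal muscle (chromosome 7, 126445858 to 126463108, minus strand), was barely detected. It had 15, 21, 25 and 18 reads in bigenic libraries 1 to 4 and 20, 17, 10 and 36 reads in control libraries 1 to 4, below 1 CPM throughout, with the highest and the lowest value both in the control group. The interval of its log2 fold change, -0.72 to 0.83 (adjusted p = 0.91), does not settle a direction at this depth. Its exons share 763 bases, 21.9%, with Rabep2 on the opposite strand, so some of these reads could belong to that gene if strand was not used in counting. The muscle marker Ckm was at 0 to 0.0277 CPM, Acta1 at 2.12 to 3.62 CPM in bigenic mice, against 2.27 to 2.99 CPM in controls, and Mylpf at 0.428 to 0.640 CPM in bigenic mice, against 0.242 to 0.554 CPM in controls. The summed level of the 12 muscle genes, a list that includes Pvalb, which cerebellar neurons also make, was 1062 to 1183 CPM in bigenic mice, against 885 to 959 CPM in controls, with 3 of 8 tested members higher and 0 lower, where 21.4% of all genes tested were higher and 22.9% lower.

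The Golgi pump Atp2c1 was the pump gene that fell. In people, loss of a working copy of this gene causes Hailey-Hailey disease, a blistering disorder of the skin. It lies on chromosome 9 (105403539 to 105527319, minus strand) and had 172, 198, 169 and 158 CPM over bigenic libraries 1 to 4, against 275, 290, 307 and 286 CPM over controls 1 to 4. The highest bigenic library was well below the lowest control, a separation seen in that direction for 21.4% of the genes tested. The level was 1.66-fold lower in bigenic libraries (log2 fold change -0.73 ± 0.08, SE; 95% interval -0.91 to -0.56; adjusted p = 6e-05), rank 259 by p among the genes tested. A called fall of at least this size was seen in 8.27% of the genes tested. Over the 17 alternatives the log2 fold change lay between -0.82 and -0.69 and adjusted p between 6.3e-15 and 0.0046.

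Control library 4, with Ttr at 2.76 CPM, had 286 CPM of Atp2c1, between the values of the other controls. Its summed choroid plexus list was at 295 CPM, against 164 to 232 CPM in bigenic libraries. Without control libraries 2 and 3 the log2 fold change was -0.69 (edgeR's quasi-likelihood test, adjusted p = 0.0041). That fit keeps control library 1, with Ttr at 300.2 CPM. The part of choroid plexus in the fall of Atp2c1 was not tested. The 3′ end of Atp2c1 overlaps Aste1, a gene on the opposite strand, over 1837 exonic bases, 18.9% of the exonic sequence of Atp2c1. The Aste1 row held 3.44 to 5.08 CPM in bigenic mice, against 4.70 to 6.07 CPM in controls. Whether reads of the shared stretch were counted on either gene was not tested. Aste1 itself was lower in bigenic libraries (log2 fold change -0.44 ± 0.15, SE; adjusted p = 0.035), with overlapping groups.

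The Golgi pump's part in the summed FPKM of the 8 genes was 6.46 ± 0.254% in bigenic and 11.2 ± 1.06% in control libraries (SD, n = 4 each). The plasma membrane class made up 41.2 ± 2.15% in bigenic and 35.5 ± 0.691% in control libraries, and the reticulum class 52.4 ± 2.00% in bigenic and 53.4 ± 0.772% in control libraries. The ratio of Atp2a2 to Atp2c1 FPKM was 5.80, 6.09, 6.22 and 6.50 in bigenic libraries 1 to 4 and 4.21, 3.85, 3.64 and 3.48 in control libraries 1 to 4. Every bigenic ratio lay above every control ratio, a description of the same fall in Atp2c1 set against a reticulum pump whose own groups overlapped.

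**Figure D4:**
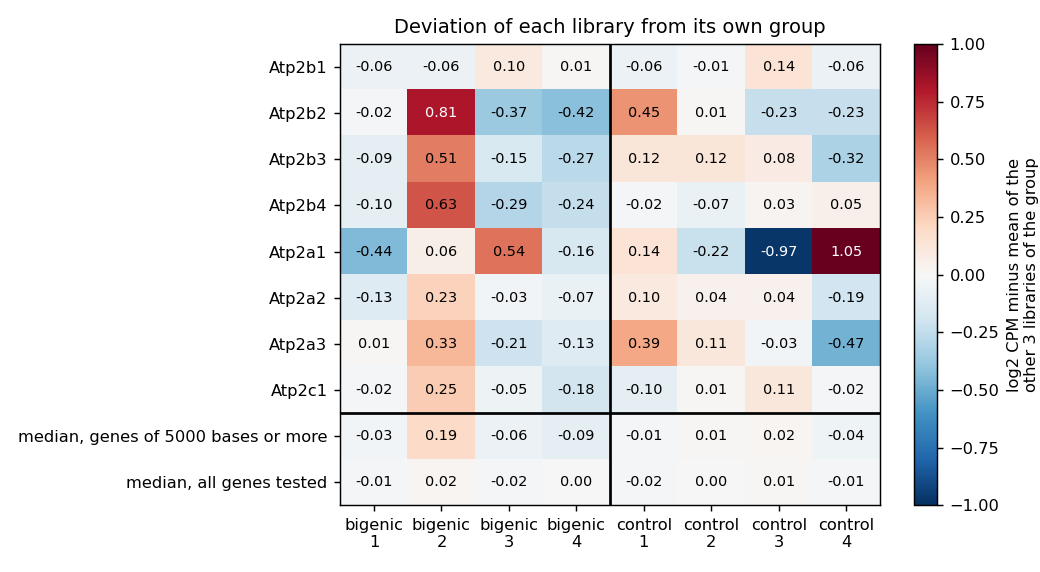
Deviation of each library from the mean of the other 3 libraries of its group (log2 CPM; rows are the pump genes and, below the line, the median of genes of 5000 bases or more and of all genes tested; bigenic left). Bigenic library 2 is 0.81 above its group for Atp2b2, 0.63 for Atp2b4 and 0.51 for Atp2b3 but -0.06 for Atp2b1; the extreme values of Atp2a1 rest on 10 and 36 reads.

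The pump genes did not all deviate together in single libraries. In bigenic library 2, Atp2b2 lay 0.81 above the other 3 bigenic libraries on the log2 scale, higher than the deviation of 97.0% of the genes tested, and Atp2b4 and Atp2b3 lay 0.63 and 0.51 above. Atp2b1, a gene of 7130 bases in the deposited lengths, close to the 7218 of Atp2b2, lay 0.06 below in the same library. The part of transcript length and of the makeup of this library in these values was not tested. Control library 1 was high in Atp2b2, by 0.45, and in Atp2a3, by 0.39, and control library 4 was low in Atp2a3, by 0.47, and in Atp2b3, by 0.32.

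The genes most like each pump gene over the 8 libraries were found by Pearson's r of log2 CPM among all named genes tested, as a description with n = 8. For Atp2b2, Eif4g3 was among the 2 closest, with r = 0.985 (Spearman's rho 0.881), which became 0.938 without the 2 libraries farthest from the median of Atp2b2. For Atp2b1 the closest was the Purkinje cell gene Ppp1r17 (r = 0.981, rho 0.976, 0.977 without the 2 farthest). For Atp2b3 the closest were Kank2 and the neuronal splicing factor Rbfox3 (r = 0.988 each; rho 0.881 and 0.929; 0.927 and 0.969 without the 2 farthest). Both were also called higher in bigenic libraries, at log2 fold changes of 0.30 and 0.56. For Atp2a3 the closest was the adaptor subunit Ap2a2, with r = 0.997, rho 1.000 and 0.984 without the 2 farthest, and for Atp2a2 it was Dysf, with r = 0.980, rho 0.952 and 0.961. For Atp2c1 the closest were Agfg1 (r = 0.999, rho 0.976, 0.997 without the 2 farthest) and the ketone body enzyme gene Oxct1 (r = 0.998, rho 1.000, 0.998), both also lower in bigenic libraries. Atp2b4 was closest to Ptpn22 with r = 0.984 and rho 0.952, but 0.75 without the 2 farthest libraries, and Atp2a1 to Hap1 with r = 0.977, rho 0.976 and 0.963. With this many genes compared over 8 libraries, values this high are the extremes of a large search. Both groups entered each r together, so for Atp2c1 and Atp2b3 a difference between groups that 2 genes share raises it. Leaving out the 2 farthest libraries keeps both groups and so does not remove that part.

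Genes of proteins that bind, regulate or serve the pumps moved in both directions. Of 41 listed, 38 were in the table and 36 were tested, of which 7 rose and 8 fell, with a median log2 fold change of 0.01. These 15 of 36 compare with 44.3% over all genes tested. Without control libraries 2 and 3 the counts were 2 and 3, and without control library 2 alone 4 and 6. Without control library 3 alone 7 rose and 5 fell.

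Regulators of the reticulum pumps were among the called genes. Calr, the calcium-binding chaperone calreticulin of the reticulum lumen, was at 309 ± 29.2 CPM in bigenic mice, against 508 ± 55.2 CPM in controls (SD, n = 4 each), -0.72 ± 0.09 on the log2 scale (SE; edgeR, adjusted p = 0.00016). Sln, which encodes sarcolipin, a small inhibitor of the reticulum pump, fell by 1.87 on the log2 scale but was scarce, at 0.492 ± 0.139 CPM in bigenic mice, against 1.81 ± 0.573 CPM in controls. Tmem64, a membrane protein that binds Atp2a2, was at 74.3 ± 2.96 CPM in bigenic mice, against 105 ± 2.90 CPM in controls, and fell by 0.49 on the log2 scale. Tmx1, a reticulum thioredoxin that acts on the same pump, rose by 0.61, at 116 ± 16.9 CPM in bigenic mice, against 76.1 ± 2.99 CPM in controls. These 4 genes, in which the groups did not overlap, still passed without control libraries 2 and 3. Over the 36 partners tested, the groups did not overlap for 5 that were higher and 5 that were lower in bigenic libraries. Among all genes tested, 40.7% did not overlap in either direction, so such separation was not particular to these genes.

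Stim1, the sensor of calcium in the reticulum, which also binds plasma membrane pumps, had the smallest p of the list. It was at 120 ± 2.54 CPM in bigenic mice, against 72.4 ± 5.49 CPM in controls (SD, n = 4 each; log2 fold change 0.73 ± 0.07, SE; adjusted p = 3.3e-05). Of the other partners of plasma membrane pumps, the scaffold Cask rose by 0.36 and Ppp3r1, the regulatory subunit of the phosphatase calcineurin, by 0.37; without control libraries 2 and 3, with 2 fewer samples, neither passed, at log2 fold changes of 0.39 for Cask and 0.35 for Ppp3r1 (edgeR's quasi-likelihood test, adjusted p = 0.055 and 0.10). With Ttr as a covariate they were 0.39 and 0.24 (adjusted p = 0.097 and 0.29). Ppp3r1 shares 14.3% of its exonic bases with Wdr92 on the same strand. In the Golgi, Tmem165, a membrane protein of calcium and manganese balance, fell by 0.40 together with Atp2c1, at 28.4 ± 0.737 CPM in bigenic mice, against 37.4 ± 2.97 CPM in controls. Without control libraries 2 and 3 its log2 fold change was -0.35 and did not pass (edgeR, adjusted p = 0.051). Atp2c2, the second Golgi pump, had 3 to 6 reads in bigenic and 9 to 21 reads in control libraries and did not pass the filter.

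**Figure D5:**
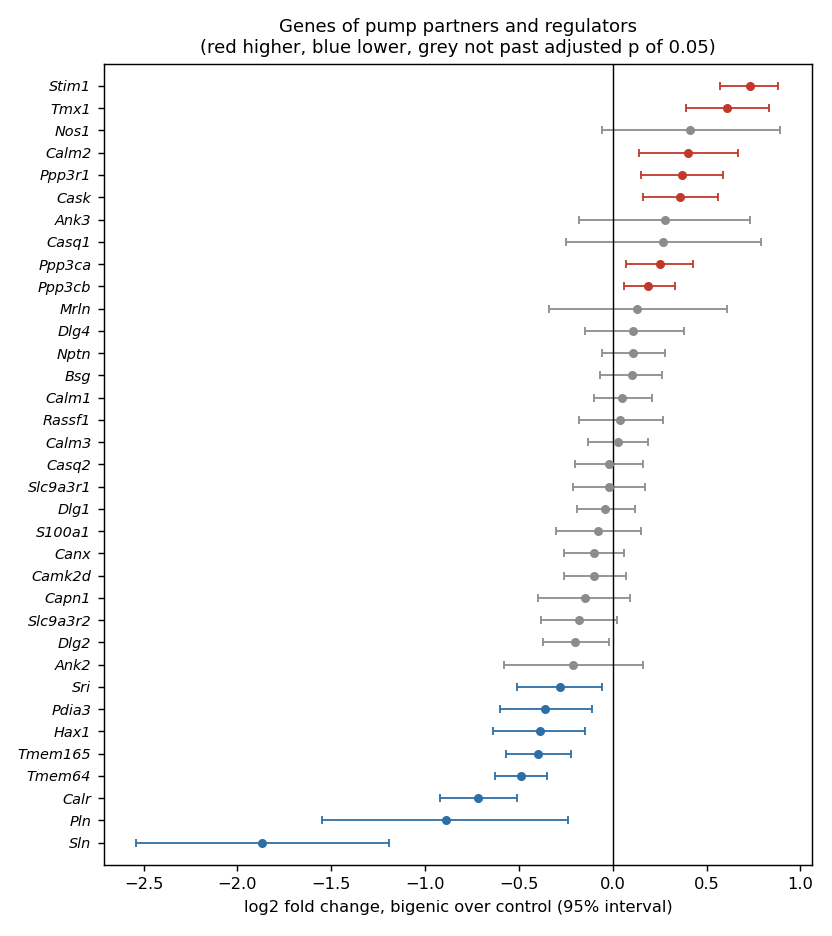
Log2 fold change, bigenic over control, of tested genes of pump partners and regulators, 1 of the 36 left out, with 95% intervals (red higher, blue lower, grey not past the threshold). Sln lies lowest at -1.87 with a wide interval and Stim1 highest at 0.73.

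Among the other P-type ATPases, which carry copper, lipids and other loads by the same kind of cycle, 23 were tested, of which 3 rose and 2 fell, and the median log2 fold change was 0.04. These 5 of 23 lie below the 44.3% that passed over all genes tested. The copper pump Atp7a fell by 0.63 on the log2 scale, at 17.6 ± 0.804 CPM in bigenic mice, against 27.4 ± 3.95 CPM in controls (SD, n = 4 each), and the lipid flippase gene Atp10b fell by 1.26, at 0.843 ± 0.480 CPM in bigenic mice, against 2.04 ± 0.495 CPM in controls with overlapping groups. Atp8b2 and Atp9b rose by 0.19 and 0.17 (edgeR, adjusted p = 0.031 and 0.036). With library size alone they were at 0.11 and 0.09 and did not pass (edgeR, adjusted p = 0.22 and 0.26). Without control libraries 2 and 3, with 2 fewer samples, 1 rose and 1 fell: Atp7a passed at -0.45 (edgeR, adjusted p = 0.026), while Atp10b at -1.09, Atp8b2 at 0.16 and Atp9b at 0.16 did not. With Ttr as a covariate Atp7a was at -0.43 and did not pass (edgeR, adjusted p = 0.065). With library size alone 1 rose and 3 fell.

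Marker lists of the cells that could hold these pumps are set here beside the 44.3% of all genes that passed, 21.4% higher and 22.9% lower. The astrocyte list, with 6 of 10 members higher and 1 lower, summed to 7482 to 8348 CPM in bigenic mice, against 6548 to 6766 CPM in controls. Among those higher were Gja1, by 0.27 on the log2 scale, and Aldh1l1, by 0.48. Aldh1l1 is the gene whose regulatory sequence drives the Cre of the bigenic mice, and whether that construct adds to its row was not tested. The 1 lower was Aqp4, by 0.48. The list of Bergmann glia, the astroglia of the Purkinje cell layer, had 2 of 9 tested members higher and 4 lower and summed to 4348 to 4969 CPM in bigenic mice, against 4042 to 4765 CPM in controls. The molecular layer interneuron list, with 2 of 10 higher and 0 lower, summed to 2102 to 2252 CPM in bigenic mice, against 1895 to 1996 CPM in controls, with no overlap. Its markers Kit, Sorcs3 and Tfap2b did not pass and leaned lower, at log2 fold changes of -0.07, -0.26 and -0.03, so the higher sum came from other genes of the list. The granule cell list summed to 5592 to 7429 CPM in bigenic mice, against 5485 to 6692 CPM in controls, with 3 of 12 members higher and 2 lower, and among them Gabra6 fell by 0.55 on the log2 scale. The Purkinje cell list summed to 14664 to 16459 CPM in bigenic mice, against 13021 to 15253 CPM in controls, with 2 of 12 higher and 0 lower. The sums of the Bergmann glia, granule cell and Purkinje cell lists overlapped between groups, and the shares of the granule and Purkinje cell lists that passed were not above that of all genes. The choroid plexus list, with 9 of 10 tested members lower and 0 higher, summed to 164 to 232 CPM in bigenic mice, against 295 to 4877 CPM in controls. The endothelium list summed to 226 to 247 CPM in bigenic mice, against 258 to 290 CPM in controls, with no overlap. Of its 10 members 3 were lower and 0 higher. The oligodendrocyte sums overlapped between groups, with 4 of 10 members higher and 2 lower. Those of smooth muscle and pericytes overlapped too, with 1 of 10 higher and 1 lower. No marker of these lists was at 0 in all 8 libraries. The part of these cell types in the differences of Atp2b3 and Atp2c1 was not tested. In the fit with Ttr, a choroid plexus marker, as a covariate, Atp2b3 was at 0.71 (edgeR's quasi-likelihood test, adjusted p = 0.027) and Atp2c1 at -0.69 (adjusted p = 0.0046). Ttr was at 2.25 to 4.62 CPM in all bigenic libraries, and among controls only library 4 was as low. That fit therefore cannot tell choroid plexus well from group, and it does not address the other cell types.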

How the data were processed

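Whole-cerebellum RNA of 8 mice, 4 per group, was analysed from 2 deposited tables. The authors deposited raw read counts per gene and FPKM values; each FPKM value was checked to be the count over a gene length and the library's total. STAR, HTSeq and mm10 are listed in the submitters' processing notes. The strand setting is not given in the sources used here, and the labels disagree on the kits used. Counts were fitted in R 4.3.3 with edgeR 4.0.16 (filterByExpr, TMM, robust quasi-likelihood F test, Benjamini-Hochberg over 15186 genes). The fit was also run on simulated counts in which few genes changed, balanced in direction. Many more genes passed in these data, so that run does not address how the scaling acts here. CPM use TMM-scaled library sizes. FPKM were refitted with limma 3.58.1 as log2(FPKM + 1) and log2(FPKM + 0.1), and counts with DESeq2 1.42.0. Coordinates are GENCODE M21 (GRCm38), counted from 1. The labels give each library a mouse of its own. The members, lists and alternatives were chosen with earlier results of these data known. Named genes are the 8 members, up to 8 partners and up to 6 other P-type ATPases with the smallest p past the threshold, and the 2 genes closest to each member in r, of which 1 is given for most; Aste1 was added because it overlaps Atp2c1. Striatum and the human construct were not analysed here. Protein sequences were not used here. A few genes and site sequences that the rules would name are not reported here. Of the partner list, Mrln was matched through an older symbol and Strit1, Erln and Arln were not analysed here.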

Additional observations from a re-analysis of the deposited data

Results flagged for a closer look

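In 6 of 66 groups of 4 libraries examined, 1 library lay far from the other 3, measured by its gap to the nearest of them over the whole range; chance gives about 1 in 20. Atp2b3 in control library 4 was at 257 CPM, with the other controls at 317 to 322 CPM. That library also had the summed molecular layer interneuron markers at 1895 CPM, against 1980 to 1996 CPM in the other controls, and the markers of brainstem and neighbouring neurons at 120 CPM, against 23.2 to 30.5 CPM. Control library 3 had Cask at 160 CPM, against 142 to 145 CPM, and Atp9b at 76.9 CPM, against 79.2 to 79.5 CPM. Bigenic library 3 had the Bergmann glia markers at 4969 CPM, against 4348 to 4446 CPM in the other bigenic libraries.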

How the results depend on the processing

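Atp2c1 and Atp2b3 kept their direction and their call in all 17 alternatives, and none of the other 6 pump genes passed in any. Leaving out each replicate in turn gave log2 fold changes of -0.80 to -0.69 for Atp2c1, 0.35 to 0.56 for Atp2b3, 0.01 to 0.38 for Atp2b2, -0.03 to 0.22 for Atp2b4 and -0.16 to 0.42 for Atp2a1. The uncalled difference of Atp2a1 was also below 0 with library size alone (-0.04), upper-quartile factors (-0.01), log2(FPKM + 1) (-0.0024), without control libraries 2 and 3 (-0.36) and with the Ttr covariate (-0.72), where that of Atp2a2 was 0.07; the cause was not tested.

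Over all genes 1619 were higher and 1775 lower without control libraries 2 and 3, with 2 fewer samples, and 1270 and 1665 with the Ttr covariate. Of the partners 2 rose and 3 fell in each of these fits, and 4 rose with either pseudocount on FPKM. Leaving out 1 replicate gave 4 to 8 higher and 5 to 10 lower partners, and 1 to 3 higher and 2 to 4 lower among the other P-type ATPases. The other P-type ATPases gave 1 higher with library size alone, upper-quartile factors, FPKM, the Ttr covariate and without control libraries 2 and 3; 1 was lower in the last and 0 with the Ttr covariate.

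The main fit did not pair libraries by replicate number. Deviations of same-numbered libraries correlated at 0.329, 0.024, 0.166 and 0.063, all positive, which does not settle whether the numbers pair the mice. With the replicate number as a block, 3648 genes were higher and 3795 lower, the other P-type ATPases gave 5 higher, and the pump calls were 1 and 1. As shares of summed counts, Atp2b3 was 28.6% in bigenic libraries, Atp2b4 2.99% in bigenic and 3.28% in control libraries, Atp2a1 0.0386% in bigenic libraries, Atp2a2 79.6% in bigenic and 82.2% in control libraries, and Atp2a3 20.3% in bigenic and 17.7% in control libraries, because counts are not divided by length. Of the calcium pumps, Atp2a1 and Atp2c2 are limited by their few reads.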
